A study of Homo sapiens with 6 samples.

Results

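A set of 10 genes of the Notch pathway were followed in HT1080 cells: the receptors NOTCH1, NOTCH2 and NOTCH3, the ligands JAG1, JAG2 and DLL1, the receptor-modifying enzyme LFNG, and the transcriptional targets HES1, HES4 and HEY1. They were taken by gene name from a deposited table of 58735 genes, and 10 of 10 names matched a single row. HT1080 is an established human fibrosarcoma line. The samples were 3 wild-type (WT) libraries and 3 knockout (KO) libraries of the same line, made with CRISPR-Cas9 against GPR56. That gene, listed as ADGRG1 in the table, codes for a receptor of the adhesion GPCR family. The sample descriptions of both genotypes carry the solvent name DMSO, without a dose or time. The labels do not give the number of KO clones, nor whether the 3 libraries of a genotype came from separate cultures, so the p-values reflect only how these particular libraries vary, which may be technical, and an effect of the genotype cannot be told apart from one of the clone or population sampled.

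Notch signalling runs between touching cells. A ligand of the Jagged or Delta type on a cell binds a Notch receptor on its neighbour, ADAM proteases and the gamma-secretase complex then cut the receptor, and the freed intracellular domain enters the nucleus. There it joins the DNA-binding protein RBPJ and a Mastermind coactivator, and genes of the HES and HEY families, which encode repressors of the basic helix-loop-helix class, are the best known targets. Fringe enzymes such as LFNG extend O-fucose sugars on the receptor's extracellular domain and so change which ligands it answers to. NOTCH2 and NOTCH3 are known for roles in mesenchymal and vascular mural cells.

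The core of the RBPJ binding site is TGGGAA, and the sequence before the start of HES1 is the textbook example of a promoter that holds it. The sequences below are the bases upstream of the RefSeq start sites (GRCh38.p14) of the 3 members that rose in KO cells, HES1, LFNG and NOTCH3, each written 5′ to 3′ on the gene's strand. Capitals mark TGGGAA. HES1 lies at chr3:194135898-194136144 on the plus strand, LFNG at chr7:2512279-2512528 on the plus strand, and NOTCH3 at chr19:15200996-15201245 on the minus strand.
HES1: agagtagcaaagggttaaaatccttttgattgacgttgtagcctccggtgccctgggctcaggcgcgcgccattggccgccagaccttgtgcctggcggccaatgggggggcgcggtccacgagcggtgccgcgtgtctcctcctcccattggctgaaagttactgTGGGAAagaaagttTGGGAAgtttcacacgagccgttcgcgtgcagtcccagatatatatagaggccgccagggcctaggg
LFNG: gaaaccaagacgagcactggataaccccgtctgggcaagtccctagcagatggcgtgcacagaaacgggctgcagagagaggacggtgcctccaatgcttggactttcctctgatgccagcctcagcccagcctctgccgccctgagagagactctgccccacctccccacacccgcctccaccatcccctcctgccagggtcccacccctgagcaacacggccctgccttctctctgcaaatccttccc
NOTCH3: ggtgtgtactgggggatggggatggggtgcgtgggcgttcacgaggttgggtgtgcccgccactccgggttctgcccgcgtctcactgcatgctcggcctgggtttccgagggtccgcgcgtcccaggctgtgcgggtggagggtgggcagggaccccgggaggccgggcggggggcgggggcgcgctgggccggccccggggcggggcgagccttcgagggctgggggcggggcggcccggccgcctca

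The HES1 stretch held 2 copies of TGGGAA on the gene's strand, from 84 and 70 bases before the start site, with 8 bases between them. The first is part of the longer form GTGGGAA. HES4, which did not pass the test, held 1 copy, also within GTGGGAA. In the HES4 window 75 of 250 bases lie in annotated exons. The gene positions used below start HES4 at 1000172 on the minus strand, so all but the first base of its TGGGAA is exonic. The stretches of 30 bases that begin 10 bases before the first match (HES1 at chr3:194136054-194136083, plus strand, and HES4 at chr1:1000154-1000183, minus strand) show the shared site.
HES1: aaagttactgTGGGAAagaaagttTGGGAA
HES4: ggggcgagtgTGGGAAagaatgcggagccg

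Both strands were searched in the 250 bases before each start. LFNG has a second RefSeq start, and its window (chr7:2517613-2517862) held 1 TGGGAA at its far end, 248 bases before that start. No match lay in the windows of NOTCH1, NOTCH2, NOTCH3, JAG1, JAG2 or the first LFNG start. Of all 35116 promoter windows of the same length, 20.8% held at least 1 TGGGAA, 2.90% at least 2, and 5.43% held GTGGGAA. The N box CACNAG, a sequence bound by HES proteins, was found 3 times in the HES1 window, 1 time in the NOTCH3 window and 1 time in the second LFNG window, and 32.04% of all windows held it. None of these N boxes overlapped a TGGGAA match. A match describes the letters and is no evidence of binding in these cells. DLL1 and HEY1 were not searched.

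Values are FPKM, reads scaled to gene length and library size. The length is that of all annotated exonic bases of a gene (16807 for NOTCH2, 9298 for JAG1), which need not equal that of the transcripts present. Levels, shares and ranks of different genes can therefore be set side by side only roughly. Libraries held 16410352 to 17276269 reads recovered from these values, in which 1 read in a gene of 1 kb stood for 0.0581 to 0.0602 FPKM. ADGRG1, which checks the labels, lay at 6.07 to 6.87 FPKM in WT and 2.54 to 2.68 FPKM in KO libraries (log2 difference −1.06, limma adjusted p = 6.24e-05). The mRNA was still present in KO cells, and the labels do not state which part was targeted. Of 10 mesenchymal markers, 8 had a mean of at least 1 FPKM, with a summed level of 655 to 667 FPKM in WT and 743 to 821 FPKM in KO libraries. Other cell types were represented by few of their markers: KRT8 and KRT18 of 10 epithelial genes (CDH1 and KRT14 had 0 reads), ROBO4 of 10 endothelial genes (EMCN had 0 reads), LAPTM5 of 10 haematopoietic genes (PTPRC had 0 reads) and 0 of 10 neural genes (SOX2 and SOX10 had 0 reads). The haematopoietic sum was 0.948 to 1.24 FPKM in WT and 10.5 to 12.2 FPKM in KO libraries, most of it LAPTM5, and the epithelial sum was 77.6 to 81.0 and 108.8 to 112.0 FPKM. Whether these differences have a part in those of the Notch genes was not tested. In bulk RNA, fewer cells of a type and less RNA per cell cannot be told apart.

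Differences are KO minus WT after a log2(FPKM + 1) transform, so the change of a gene at low level is understated. They were tested with limma over the 12000 genes with a mean of at least 1 FPKM, with Benjamini-Hochberg adjustment over all of them and a threshold of 0.05. Of the members, 3 rose in KO cells (LFNG, NOTCH3 and HES1, ratios of mean FPKM 1.83, 2.28 and 1.61). NOTCH3 had a WT mean of 0.852 FPKM, under the cutoff, and met the filter only through its KO libraries (mean 1.94 FPKM). With no filter it also passed (limma adjusted p = 0.0203). None of the 9 tested members fell in limma, in limma-voom or at an unadjusted p under 0.05. The other 6 tested members did not pass, and JAG2 lay under the filter and was not tested. The 3 of 9 called members (33.3%) stand beside 43.4% of all tested genes called in either direction and 21.0% called higher, so the count itself does not set these genes apart from the rest. The same 3 were the tested members whose genotypes did not overlap (33.3% of 9), beside 54.7% of all tested genes, 26.4% with KO above WT and 28.3% with KO below. The median difference of the 9 members was 0.13 and that of all tested genes −0.01.

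**Figure D1:**
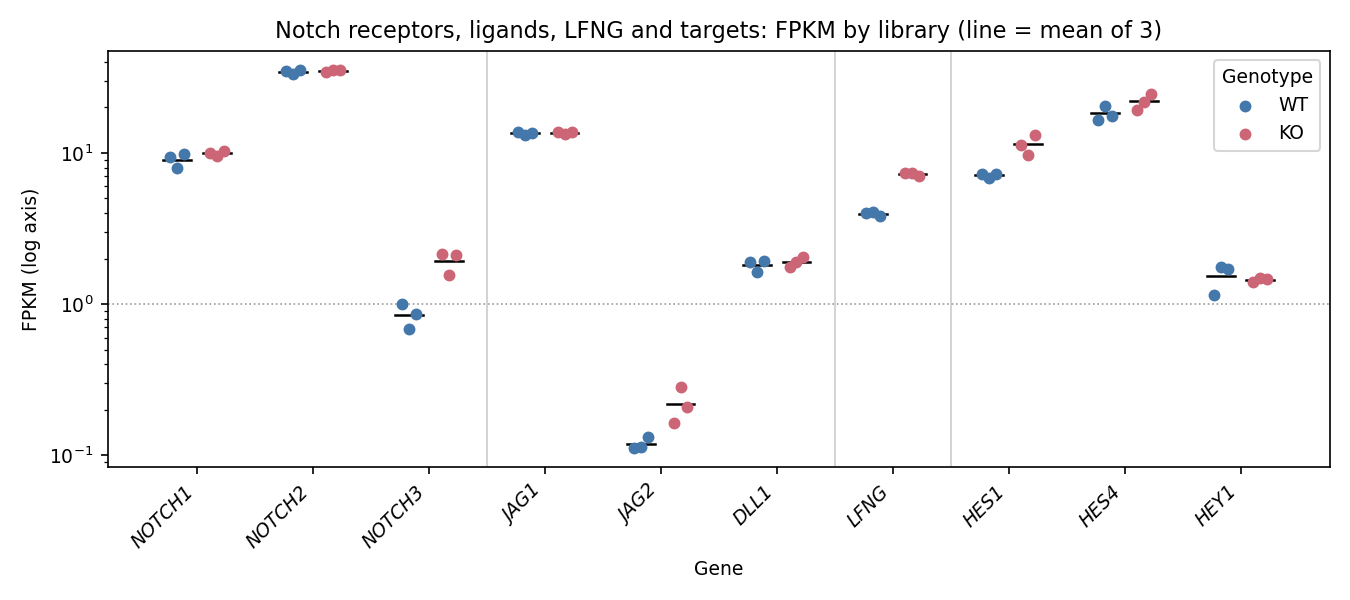
FPKM of each member in the 6 libraries on a log axis (points: libraries, lines: means of 3, dotted line: 1 FPKM). KO points lie above all WT points for NOTCH3, LFNG, HES1 and JAG2, and the genotypes overlap for the other genes.

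**Figure D2:**
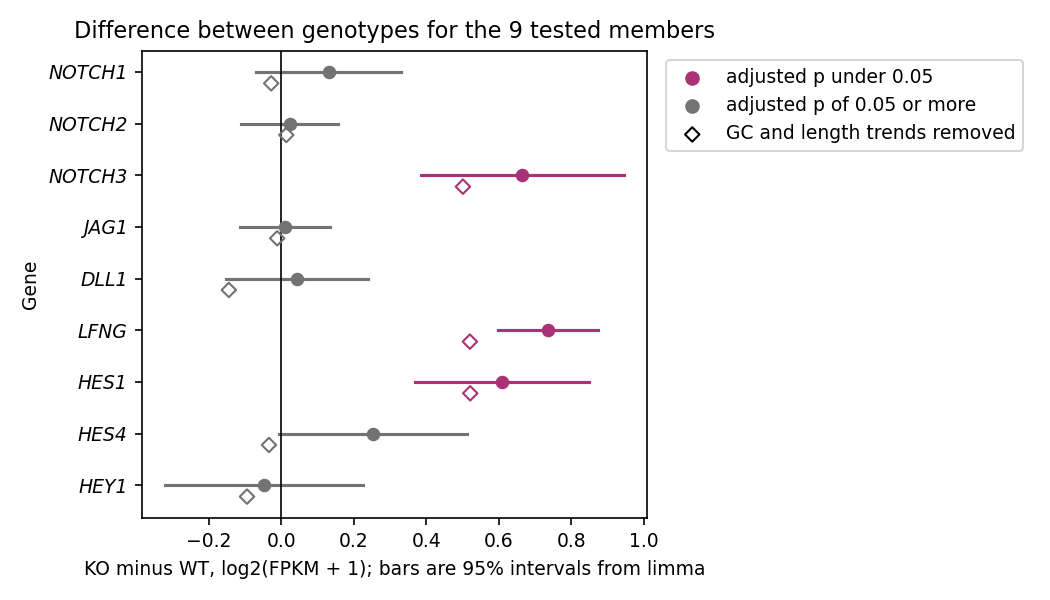
KO minus WT difference on the log2(FPKM + 1) scale for the 9 tested members, with 95% intervals from limma. Open diamonds give the difference after each library's GC and length trends were removed: LFNG, NOTCH3 and HES1 stay at 0.50 to 0.52, and HES4 moves from 0.25 to −0.03.

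Among the receptors, NOTCH2 was by far the most abundant and NOTCH3 the one that rose. NOTCH2 (ENSG00000134250, chromosome 1, positions 119911553 to 120069626, minus strand) was at 35.0, 33.1 and 35.5 FPKM in WT and 34.3, 35.5 and 35.4 FPKM in KO, on 9250 to 10273 reads per library. The genotypes overlapped, and the difference of 0.02 had a 95% interval of −0.11 to 0.16 (limma adjusted p = 0.776). The partial copy NOTCH2NLA, which shares sequence with the first exons of NOTCH2, had a mean of 0.239 FPKM in WT and 0.180 FPKM in KO, and reads of the shared part cannot be assigned with certainty.

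NOTCH1 (ENSG00000148400, chromosome 9, positions 136494433 to 136545786, minus strand), the receptor best known from lymphoid development and T cell leukaemia, was at 9.40, 7.93 and 9.79 FPKM in WT and 10.0, 9.48 and 10.4 FPKM in KO. The lowest library was WT 2, and the genotypes overlapped. The difference was 0.13 with an interval of −0.07 to 0.33 (limma adjusted p = 0.254).

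NOTCH3 (ENSG00000074181, chromosome 19, positions 15159038 to 15200981, minus strand), known for its role in pericytes and vascular smooth muscle, was at 1.01, 0.684 and 0.864 FPKM in WT and 2.15, 1.57 and 2.10 FPKM in KO. Every KO library lay above every WT library, with KO 2 the lowest of its genotype and WT 2 the lowest of its own. The mean rose from 0.852 ± 0.162 to 1.94 ± 0.32 FPKM (SD, n = 3 each), on 402 and 927 reads in all. The log2 difference was 0.66 (SE 0.12, 95% interval 0.38 to 0.94, limma adjusted p = 0.00423), and 1.15 by limma-voom on the recovered reads, or 1.10 with a pseudocount of 0.1.

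Receptor mRNA was made up mainly of NOTCH2 in both genotypes. NOTCH3 made up 2.22, 1.64 and 1.87% of the summed FPKM of the 3 receptors in WT and 4.62, 3.36 and 4.39% in KO. NOTCH2 made up 77.8 ± 1.3% in WT and 74.7 ± 1.4% in KO, and NOTCH1 20.3 ± 1.1% and 21.2 ± 0.7% (SD, n = 3). The summed receptor level was 44.4 ± 2.4 FPKM in WT and 47.0 ± 0.8 FPKM in KO. These shares are descriptions and carry no test.

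The ligands were carried almost wholly by JAG1, and none of them passed the test. JAG1 (ENSG00000101384, chromosome 20, positions 10637684 to 10673999, minus strand) was at 13.7, 13.2 and 13.5 FPKM in WT and 13.8, 13.3 and 13.7 FPKM in KO. The 6 libraries formed a single narrow range, and the difference of 0.01 had an interval of −0.11 to 0.14 (limma adjusted p = 0.886). JAG1 accounted for 87.5 ± 0.8% of the summed FPKM of the 3 ligands in WT and 86.5 ± 1.0% in KO.

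DLL1 (ENSG00000198719, chromosome 6, positions 170282206 to 170306565, minus strand), a Delta-type ligand, was at 1.89, 1.64 and 1.92 FPKM in WT and 1.77, 1.89 and 2.04 FPKM in KO, with overlapping genotypes (difference 0.04, interval −0.15 to 0.24, limma adjusted p = 0.712). JAG2 (ENSG00000184916, chromosome 14, positions 105140981 to 105168824, minus strand) rested on 12, 12 and 14 reads in WT and 18, 31 and 22 reads in KO, or 0.111, 0.113 and 0.132 against 0.164, 0.282 and 0.207 FPKM. The KO libraries lay above the WT libraries, at a level where each library holds few reads. With no expression filter its difference was 0.12 (95% interval 0.0036 to 0.24) and did not pass (limma adjusted p = 0.171).

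LFNG, the fringe enzyme of this set, rose in KO cells. Its difference was the largest of the 9 tested members on the log2(FPKM + 1) scale. NOTCH3 had the larger ratio of means (2.28 against 1.83) and the larger difference by limma-voom (1.15 against 0.84) and with a pseudocount of 0.1 (1.10 against 0.86). Without KO 2 NOTCH3 was also ahead (0.76 against 0.73), and with GC and length trends removed LFNG and HES1 were level at 0.52. LFNG (ENSG00000106003, chromosome 7, positions 2512529 to 2529177, plus strand) was at 3.99, 4.10 and 3.80 FPKM in WT and 7.37, 7.35 and 7.07 FPKM in KO. The 2 genotypes were separated by a gap many times wider than the spread within either. The mean rose from 3.96 ± 0.15 to 7.26 ± 0.17 FPKM (SD, n = 3), with a log2 difference of 0.74 (SE 0.06, 95% interval 0.60 to 0.87, limma adjusted p = 0.000163).

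Genes beside LFNG were higher in KO cells as well. Of the 74 other tested genes between 0 and 20 Mb of chromosome 7, 45 (60.8%) were higher and 5 (6.76%) lower, against 21.0% and 22.4% of all tested genes, and their median difference was 0.38. Of the 74, 6 had a difference at least as large as that of LFNG. Within 1 Mb of LFNG, 10 of 13 tested genes were higher and 1 was lower, with a median of 0.44, and 0 of the 13 reached the difference of LFNG. LFNG lay 0.35 above the median of its 20 Mb window, and 0.22 above it with GC and length trends removed. The part of this neighbourhood in the rise of LFNG was not tested.

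The 3 tested protein-coding genes whose values over the 6 libraries were most like those of LFNG were PTCHD4, DCUN1D2 and CCNG2. Likeness was the root mean square difference of centred log2(FPKM + 1) values, at 0.016, 0.038 and 0.039. PTCHD4, for example, rose from 2.21 ± 0.09 to 4.32 ± 0.13 FPKM (SD, n = 3).

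Of the target genes, HES1 rose, while HES4 and HEY1 did not pass the test. HES1 (ENSG00000114315, chromosome 3, positions 194136145 to 194138732, plus strand), a repressor that holds back differentiation genes and its own promoter, was at 7.22, 6.85 and 7.20 FPKM in WT and 11.3, 9.73 and 13.2 FPKM in KO. The WT libraries lay close together, the KO libraries were spread more widely, and the lowest KO library was still above the highest WT library. The mean rose from 7.09 ± 0.21 to 11.4 ± 1.7 FPKM (SD, n = 3; 734 and 1197 reads), with a log2 difference of 0.61 (SE 0.10, 95% interval 0.37 to 0.85, limma adjusted p = 0.00316). KO 2 was the lowest KO library for HES1 and for NOTCH3, and the second lowest for LFNG.

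HES4 (ENSG00000188290, chromosome 1, positions 998962 to 1000172, minus strand), a close relative of HES1 without a counterpart in mice, was at 16.5, 20.6 and 17.6 FPKM in WT and 19.3, 21.8 and 24.7 FPKM in KO, and WT 2 lay above KO 1. Its difference of 0.25 had an interval of −0.01 to 0.51 (limma adjusted p = 0.103). Without WT 2 it was 0.34 and passed (adjusted p = 0.0439), and with GC and length trends removed it was −0.03 (adjusted p = 0.889). HES4 has the highest GC content of the members, at 73.9%, where the tested genes have a median of 48.3%.

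HEY1 (ENSG00000164683, chromosome 8, positions 79764010 to 79767863, minus strand), the target of the HEY type in this set, was at 1.15, 1.77 and 1.71 FPKM in WT and 1.39, 1.49 and 1.45 FPKM in KO. All KO values fell inside the WT range, and the difference of −0.05 had an interval of −0.32 to 0.22 (limma adjusted p = 0.769). At 63 to 95 reads per library a change of the size seen for HES1 lies outside that interval. HES4 made up 67.8 ± 2.4% of the summed FPKM of the 3 targets in WT and 63.0 ± 2.9% in KO, and HES1 26.5 ± 2.8% and 32.8 ± 3.0%.

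The surroundings of HES1 and NOTCH3 were described in the same way, with no test between windows. Around HES1, the 96 other tested genes between 180 and 200 Mb of chromosome 3 had a median difference of 0.00, with 15 higher and 17 lower, and 1 of them reached the difference of HES1. That gene was XXYLT1, on the minus strand, whose lowest position lies 0.932 Mb from that of HES1. XXYLT1 codes for a xylosyltransferase that acts on Notch receptors. Around NOTCH3, the 331 other tested genes in the first 20 Mb of chromosome 19 had a median of 0.22, and 0.05 with GC and length trends removed. In that window 133 (40.2%) were higher and 20 (6.04%) lower, against 21.0% and 22.4% of all tested genes, and 41 reached the difference of NOTCH3. Within 1 Mb of NOTCH3, 8 of 20 tested genes were higher and 3 lower, with a median of 0.09. NOTCH3 lay 0.44 above the median of its 20 Mb window, and 0.45 above it with GC and length trends removed. Within 1 Mb of HES1, 2 of 10 were higher and 2 lower, with a median of 0.02. HES1 lay 0.60 above its window median, and 0.54 with the trends removed.

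**Figure D3:**
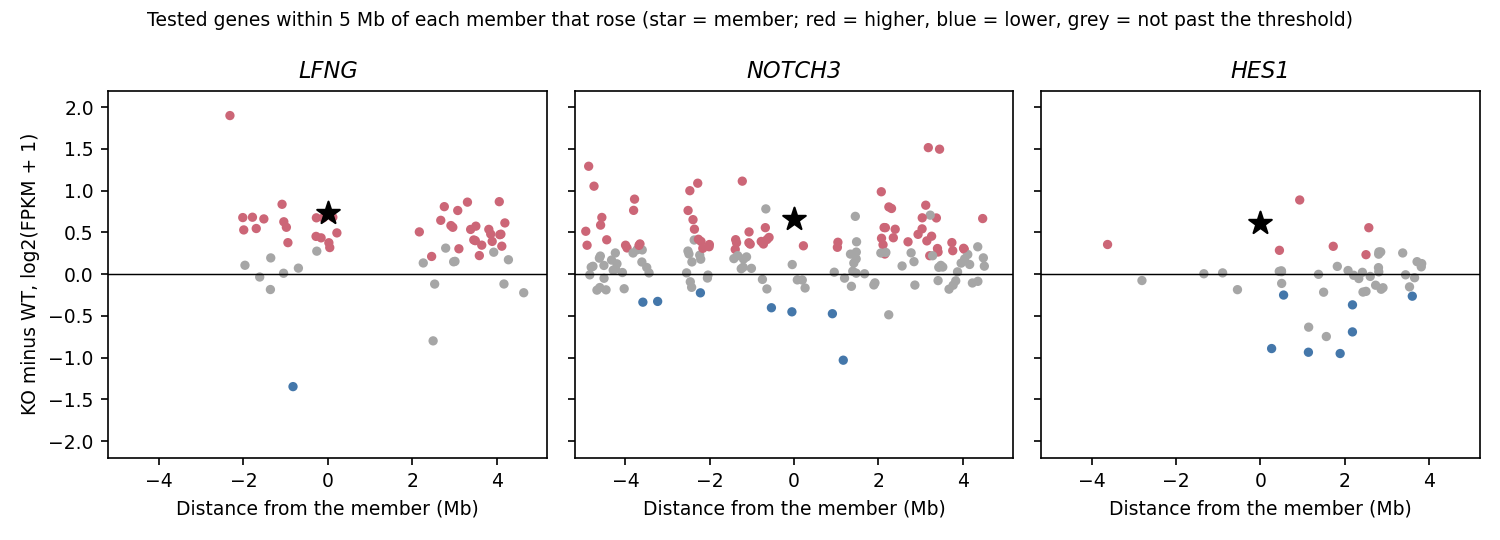
KO minus WT difference on the log2(FPKM + 1) scale of tested genes within 5 Mb of LFNG, NOTCH3 and HES1, by distance from the member (star: the member, red: higher, blue: lower, grey: not past the threshold). Most genes beside LFNG and most beside NOTCH3 lie above 0, while those beside HES1 scatter on both sides of it.

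Base composition moved with genotype in these libraries. Across genes, which are not independent replicates, GC content and a gene's deviation in 1 library from its mean over the 6 had a Spearman correlation of −0.62 to −0.01 in the WT libraries and 0.23 to 0.46 in the KO libraries. Its part in the differences was not tested beyond the corrected values given. LFNG and NOTCH3 have a GC content of 62.7% and 63.1%, and HES1 of 49.9%. With the GC and length trends of each library removed, the same 3 members passed. LFNG was then at 0.52 (limma adjusted p = 0.00276), NOTCH3 at 0.50 (0.0118) and HES1 at 0.52 (0.00581). All 3 differences were smaller than before, when they were 0.74, 0.66 and 0.61.

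The order of levels was nearly the same in both genotypes. In WT it ran NOTCH2, HES4, JAG1, NOTCH1, HES1, LFNG, DLL1, HEY1, NOTCH3 and JAG2, and the library ranges of neighbours in this order overlapped for DLL1 and HEY1 and for no other pair. In KO, HES1 came before NOTCH1 with overlapping ranges, and NOTCH3 moved past HEY1 to the level of DLL1, 1.94 and 1.90 FPKM, with overlapping ranges. JAG2 was the lowest member in both. The ranges show the spread of libraries and do not cover errors between genes from exonic length or base composition.

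The rest of the pathway was read from a list of 77 other genes, of which 60 were tested. Of these, 21 were higher, 13 lower and 26 did not pass, so 56.7% were called, beside 43.4% of all tested genes. Their median difference was 0.05. With GC and length trends removed the counts were 21 higher and 10 lower, where 43.8% of all genes were called and 21.7% were called higher. That correction moved several called differences by more than 1.5 times, from 0.43 to 0.18 for EGFL7, 0.47 to 0.24 for RFNG, 0.28 to 0.12 for APH1A, 0.21 to 0.53 for ADAM17, −0.62 to −0.27 for NEDD4 and −0.21 to −0.34 for MAML1.

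Of the further genes listed as ligands, the 3 that were tested were all higher, beside 21.0% of all tested genes. The list does not separate activating ligands from others, and this small count carries no test. DNER, a transmembrane protein of neurons described as a Notch ligand, was the most abundant of them and rose from 31.1 ± 3.9 to 51.2 ± 4.6 FPKM (SD, n = 3; log2 difference 0.71, limma adjusted p = 0.00213), a level above that of JAG1. DLK2 rose from 1.41 ± 0.22 to 2.59 ± 0.52 FPKM, a call that was lost with GC and length trends removed (limma adjusted p = 0.0667). EGFL7, a secreted protein of blood vessels, rose from 8.80 ± 0.81 to 12.2 ± 0.9 FPKM. The other 6 ligand genes lay under the filter, among them DLL3 (83 reads over WT and 105 over KO) and DLL4 (19 and 52 reads).

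The enzymes that put sugars on Notch receptors changed in both directions. Of 7 tested, 4 were higher and 3 lower, beside 21.0% and 22.4% of all tested genes. With GC and length trends removed the counts were 4 higher and 2 lower. The lower call of GXYLT1 was lost (−0.46, then −0.13, limma adjusted p = 0.0987). GXYLT1 was named after its values were seen. XXYLT1 rose from 7.99 ± 0.31 to 15.6 ± 0.6 FPKM (log2 difference 0.89, limma adjusted p = 7.76e-05) and GXYLT2 from 2.75 ± 0.24 to 5.34 ± 0.56 FPKM, both of them xylosyltransferases. EOGT, which attaches N-acetylglucosamine to the receptor's EGF repeats, fell from 7.93 ± 0.49 to 4.19 ± 0.28 FPKM. The fringe gene RFNG was higher at 6.90 ± 0.80 and 9.91 ± 0.27 FPKM. Of its exonic bases 21.6% overlap GPS1, an antisense gene with a mean of 37.5 FPKM, and without a stated strand setting their reads cannot be told apart. MFNG, the third fringe, had 6 reads in all WT and 9 in all KO libraries.

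**Figure D4:**
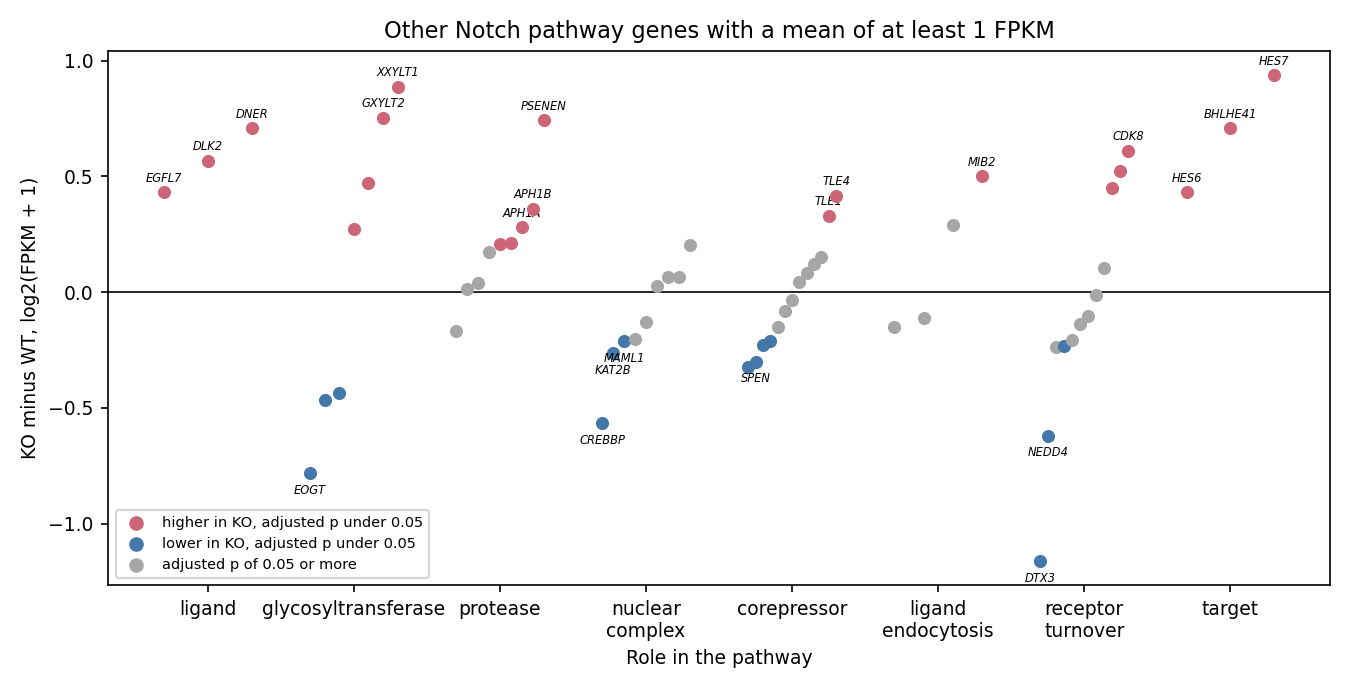
KO minus WT difference on the log2(FPKM + 1) scale for the 60 other tested pathway genes, grouped by role (red: higher, blue: lower, grey: not past the threshold). Up to 3 called genes of each role with the smallest adjusted p are named, and DTX3 at −1.16 and HES7 at 0.94 are the ends of the range.

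Of 9 genes of the proteases that cut Notch, with subunits of gamma-secretase included, limma called 5 higher and 0 lower. At an unadjusted p under 0.05 there were also 0 lower. That is 55.6% called, beside 43.4% of all tested genes, with 21.0% called higher and 22.4% lower. PSENEN, a small subunit of gamma-secretase, rose from 3.23 ± 0.33 to 6.12 ± 1.0 FPKM (limma adjusted p = 0.00221), and its partners APH1A from 46.0 ± 2.2 to 56.1 ± 1.1 FPKM and APH1B from 2.31 ± 0.10 to 3.25 ± 0.21 FPKM. The sheddase ADAM17 was at 9.40 ± 0.09 and 11.1 ± 0.2 FPKM (adjusted p = 0.0146), and this call was lost without WT 1, KO 1 or KO 2 (limma adjusted p of 0.0594, 0.0510 and 0.0601). ADAM10, the main sheddase of ligand-bound Notch, was at 8.97 ± 0.64 and 7.86 ± 0.52 FPKM and did not pass (log2 difference −0.17, limma adjusted p = 0.110). Its difference turned to 0.17 with GC and length trends removed (adjusted p = 0.0214), and it passed as lower without WT 3 (−0.22, adjusted p = 0.0452) and by limma-voom (−0.22, adjusted p = 0.0407).

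In the nuclear complex limma called 0 of 9 genes higher and 3 lower. The 33.3% called stand beside 43.4% of all tested genes, with 21.0% called higher and 22.4% lower. At an unadjusted p under 0.05, 1 was above WT, MAML3 (0.20, adjusted p = 0.0599), and limma-voom called none of the 9 higher. RBPJ itself was at 9.22 ± 1.22 and 7.87 ± 0.69 FPKM and did not pass (log2 difference −0.20, limma adjusted p = 0.162). It was called lower without WT 3 (−0.30, adjusted p = 0.0276), and its difference was 0.14 with GC and length trends removed. CREBBP, an acetyltransferase recruited as coactivator, fell from 6.69 ± 0.51 to 4.20 ± 0.39 FPKM (limma adjusted p = 0.00178). MAML1, a Mastermind coactivator, was at 14.4 ± 0.3 and 12.3 ± 0.4 FPKM (adjusted p = 0.0182), a call lost without WT 1, KO 2 or KO 3 (limma adjusted p of 0.0796, 0.0598 and 0.0669).

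Genes of receptor turnover and corepression held calls in both directions, with 3 higher and 3 lower of 12 and 2 higher and 4 lower of 13. The shares called, 50% and 46.2%, were near the 43.4% of all tested genes. With GC and length trends removed the corepressors gave 3 higher and 1 lower, and the lower calls of HDAC2 (−0.32, then 0.017), CIR1 (−0.23, then 0.025) and L3MBTL3 (−0.21, then −0.079) were lost. These 3 were named after their values were seen. DTX3, a ubiquitin ligase of the Deltex family, fell from 3.41 ± 0.20 to 0.977 ± 0.208 FPKM (log2 difference −1.16, limma adjusted p = 0.000222). DTX3 met the expression filter only through its WT libraries. CDK8, a kinase that marks the Notch intracellular domain for degradation, rose from 11.9 ± 0.3 to 18.7 ± 0.4 FPKM, and the ubiquitin ligase NEDD4 fell from 4.79 ± 0.35 to 2.77 ± 0.27 FPKM. TLE4, a Groucho-type corepressor, rose from 3.03 ± 0.14 to 4.37 ± 0.20 FPKM. In ligand endocytosis 1 of 4 tested genes was higher (25%), beside 21.0% of all tested genes. That gene was MIB2, at 1.74 ± 0.23 and 2.88 ± 0.37 FPKM, which did not pass with GC and length trends removed (limma adjusted p = 0.0640).

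Further genes of the HES and HEY type gave 3 higher of 3 tested, beside 21.0% of all tested genes called higher. This small count carries no test. HES7, the oscillating repressor of somite formation, rose from 2.38 ± 0.41 to 5.498 ± 1.11 FPKM (log2 difference 0.94, limma adjusted p = 0.00193), and BHLHE41, a related repressor, from 2.14 ± 0.50 to 4.09 ± 0.18 FPKM. HES6, which is known to oppose HES1, was at 7.66 ± 1.75 and 10.5 ± 0.4 FPKM (adjusted p = 0.0435). The HES6 call was lost without WT 1 or any 1 KO library (limma adjusted p of 0.0844 to 0.118) and with GC and length trends removed (0.142).

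Under the expression filter, HES2 and NOTCH4 stood out with many more reads in KO cells. HES2 had 3, 0 and 3 reads in the WT libraries and 114, 107 and 65 in the KO libraries, or 0.022 ± 0.019 and 1.03 ± 0.27 FPKM (SD, n = 3). NOTCH4, the receptor described mainly in endothelium, had 44, 35 and 52 reads in WT and 148, 156 and 122 in KO, or 0.268 ± 0.053 and 0.856 ± 0.092 FPKM, a ratio of 3.20. Its exons share 98 bases with those of GPSM3 on the same strand, which had a mean of 25.4 FPKM. With no filter both passed, HES2 at 0.98 (limma adjusted p = 0.00460) and NOTCH4 at 0.55 (adjusted p = 0.0107), where 15.9% of 31298 genes were called and 8.00% were called higher. Endothelial markers differed in both directions. Their sum was 7.64 to 9.43 FPKM in WT and 7.11 to 7.34 FPKM in KO libraries, most of it ROBO4, which fell from a mean of 7.24 to 4.63 FPKM (limma adjusted p = 0.00233). PECAM1 had 127 reads over WT and 486 over KO, FLT1 100 and 254, CDH5 0 and 51, and VWF 6 and 24. The genotypes overlapped for VWF. KDR had 28 and 11 reads, CLDN5 25 and 13, TEK 48 and 52, and ESAM 60 and 61, each with overlapping genotypes. All of these lay under the filter, and EMCN had 0 reads. The part of these genes in the NOTCH4 difference was not tested. HEY2 had 72 reads over WT and 21 over KO (no filter: −0.41, adjusted p = 0.0604), NRARP 35 and 61, HEYL 1 and 0, and HES5 had 0 reads in all 6 libraries, which allows up to 3 reads over a genotype.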

How the data were processed

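The 6 libraries (3 WT, 3 KO) were described by 1 table of FPKM values that the authors deposited, with gene length, position and biotype. Aligner, counter and strandedness: not given in the sources used here. Mouse builds (GRCm38, mm10) stand in the submitters' processing notes, but the coordinates of 58735 of 58735 genes equal those of human GENCODE release 29 on GRCh38, which is used for positions. FPKM times gene length stepped in whole reads (100% of values above 0 within 0.02 of a whole read), which gave the read numbers. These and the read depth cover counting error only.

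The test was limma 3.58.1 in R 4.3.3 (lmFit, eBayes with a trend) on log2(FPKM + 1), for genes with a mean of at least 1 FPKM, with genotype as the only term, two-sided, Benjamini-Hochberg adjusted at 0.05. It was also run on simulated reads without a GC trend, a setting unlike these libraries, so that run carries no weight for the calls here. GC content was that of the longest GENCODE transcript, and its trend and that of gene length were removed by lowess (span 0.3). Promoter windows came from RefSeq (GRCh38.p14), where 8 of 10 members matched. Figures were drawn with matplotlib 3.10.9.

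Named genes were the 10 members, ADGRG1, up to 3 called genes per role of the wider list with the smallest adjusted p, a fixed set of core pathway genes whatever their values, and the 3 genes most like the member with the largest log2(FPKM + 1) difference (LFNG). Members and lists were chosen with earlier results of these data known. Alternatives were another pseudocount, other filters, scalings and tests, the replicate block and leaving out each library.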

Additional observations from a re-analysis of the deposited data

How the results depend on the processing

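LFNG, NOTCH3 and HES1 stayed higher in KO and past the threshold under every alternative in which they were tested (NOTCH3 has a mean under 5 FPKM and drops out of the stricter filter), with log2 differences of 0.52 to 0.86, 0.50 to 1.15 and 0.51 to 0.71. Leaving out 1 library gave 3 to 4 called members, the fourth being HES4 without WT 2. With a mean of at least 5 FPKM required, fewer genes were tested and 1639 were called higher, 1564 lower and 20 of the 42 tested genes of the wider list. Leaving out 1 library gave 1853 to 2657 higher, 1936 to 2715 lower and 26 to 40 of the wider list. The NOTCH3 share of receptor FPKM in this setting, chosen after seeing the data, was 1.76 to 2.04% in WT and 3.88 to 4.51% in KO.

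The labels do not say that same-numbered libraries are pairs, so the numbers were not taken as pairs. Deviations of same-numbered libraries had correlations across genes of −0.07, −0.18 and −0.35. Libraries of unlike number had −0.21 to 0.37, the highest for WT 2 with KO 3. With 3 libraries per genotype these values cannot decide on pairing, and a shared batch was not tested. With the replicate block 1900 genes were called higher and 1966 lower, the same 3 members passed, and 26 genes of the wider list passed, 23 with GC and length trends removed as well.

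Several named genes that did not pass the test changed sign, and the cause was not tested. For HES4, RBPJ and ADAM10 the value with GC and length trends removed lay outside the 95% interval of the uncorrected difference, and ADAM10 then passed as higher (limma adjusted p = 0.0214). With GC and length trends removed, with or without the replicate block, the log2 difference was −0.028 for NOTCH1, −0.011 for JAG1, −0.14 for DLL1, −0.034 for HES4, 0.14 for RBPJ, 0.17 for ADAM10, −0.049 for NCSTN and 0.074 for NUMB. Quantile normalization gave −0.036 for NOTCH2, −0.029 for NCSTN and 0.014 for NUMB, and limma-voom −0.0093 for NOTCH2, −0.021 for JAG1 and −0.017 for NCSTN. Leaving out 1 library gave −0.0074 to 0.043 for NOTCH2, −0.0017 to 0.027 for JAG1, −0.0030 to 0.075 for DLL1, −0.16 to 0.017 for HEY1, −0.016 to 0.034 for NCSTN and −0.075 to 0.026 for NUMB. Depth limits JAG2, whose libraries hold 12 to 31 reads.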
